A study of Homo sapiens with 208 samples.

Results

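The D-type cyclins, cyclin G2 and the inhibitors of cyclin-dependent kinases were followed on microarrays of gefitinib-sensitive and gefitinib-resistant lung cancer cells. The genes were CCND1, CCND2, CCND3, CCNG2, CDKN1A, CDKN1B, CDKN1C, CDKN2B, CDKN2C and CDKN2D, and every probe whose transcript accession belonged to one of them was taken, 19 probes in all. These were 10 of the 16961 genes named on the array, and 9 of them were among the 13263 genes bright enough to be tested. PC9 is a human lung adenocarcinoma line with an activating deletion in the epidermal growth factor receptor (EGFR), and gefitinib inhibits the kinase of that receptor. PC9M2 cells, labelled PC9GRM2, are a resistant line that was isolated as a clone after long culture of PC9 cells in gefitinib, so that differences between the lines are differences between 1 parental and 1 derived line. Cells of both lines were starved for 48 h and then left untreated or given gefitinib at 0.5 µM, EGF at 100 ng/ml or both agents. RNA was collected at 26 time points from 0 to 24 h, with 1 array for each time point, which gave 8 time courses. There were no replicate cultures at a time point, so each test compared matched time points, and its error is the spread of the differences over the 26 time points. The RNA was from whole cultures, in which a change in every cell and a change in the mix of cells cannot be told apart.

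D-type cyclins are the link between growth factor receptors and the cell cycle. They are made when receptor signaling through MAP kinase and PI3 kinase is active, bind the kinases CDK4 and CDK6, and start the phosphorylation of the retinoblastoma protein that releases E2F transcription factors. The CIP/KIP inhibitors CDKN1A (p21), CDKN1B (p27) and CDKN1C (p57) bind whole cyclin and kinase complexes, whereas the INK4 inhibitors CDKN2B (p15), CDKN2C (p18) and CDKN2D (p19) bind CDK4 and CDK6 themselves. Cyclin G2 is an unconventional cyclin that is abundant in cells that have left the cycle, and CCNG2 and CDKN1B are known targets of FOXO factors, which PI3 kinase and Akt hold out of the nucleus.

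The number of features detected well over background ranged from 24464 to 35938, with medians of 29787 in PC9 cells and 29925.5 in PC9M2 cells. The lines differed in saturated features, with 183 to 1616 on a PC9 array and 0 on every PC9M2 array. No member probe had most of its spots saturated on any array. The bearing of this on the line differences was not tested. The arrays of all 4 treatments at a given hour came from a single slide, which makes every treatment difference a within-slide one. PC9 and PC9M2 arrays lay on 26 slides each, scanned on 8 and 9 days. Slides and days were counted within each line, so whether the lines shared any was not examined. Line and scanning period could therefore not be told apart here. All 6 epithelial markers examined (EPCAM, CDH1, KRT7, KRT8, KRT18 and KRT19) were well above background on 26 of 26 arrays of every course. Of the lung markers, NAPSA and SFTPC were so on 25 to 26 arrays, SFTPB on 9 to 13 and NKX2-1 on 0 to 3. Of markers of other cell types, PTPRC was so on 0 to 1 array, COL1A2 on 0 to 4, CD3E on 7 to 15, and PECAM1 and VWF on 25 to 26. Their part in the results was not tested.

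A pair of arrays went against their labels. At 0.5 h the difference between the PC9M2 arrays labelled EGF and gefitinib and EGF alone correlated negatively across the 13263 genes with the mean difference at the other 25 time points (r = -0.39), where the next lowest time point gave 0.24 and the median was 0.86. CCND1 was 7.87 on the library labelled EGF and 9.51 on the library labelled EGF and gefitinib at 0.5 h, against 9.12 and 8.25 at 0 h and 10.12 and 7.67 at 1 h. The untreated PC9M2 array at 11 h also stood apart, with a correlation of 0.949 with its neighbours in time against 0.964 to 0.998 for the other arrays. CDKN1A was 5.01 on it, against 7.60 at 10 h and 7.02 at 12 h. The same array also gave the highest untreated PC9M2 values of CCND1 (10.41) and CCNG2 (10.92) and the lowest of CDKN1B (5.64). The labels were kept, and the calls that changed without either time point are given with each result. Here a gene is called where the Benjamini-Hochberg adjusted p of limma, over all 13263 genes, was below 0.05. Values are log2 of the quantile-normalized signal or differences of them, and levels of different genes are not compared because probes differ in brightness.

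The promoters of 5 members are shown because these genes have 1 annotated start each in the table used and moved under gefitinib, 3 of them up (CCNG2, CDKN1B and CDKN2B) and the others down (CDKN1A and CDKN2D). The sequences are the 250 bases before the start in RefSeq, build GRCh38.p14, read 5′ to 3′ on the gene's strand. Capitals mark the letters of 3 motifs found there, GGGCGG (the SP1 box) on either strand, CACGTG (the E-box) and TTTNNCGC (an E2F motif). The windows are CCNG2 at chr4:77156957-77157206, plus strand, CDKN1A at chr6:36678464-36678713, plus strand, CDKN1B at chr12:12717118-12717367, plus strand, CDKN2B at chr9:22009306-22009555, minus strand and CDKN2D at chr19:10568980-10569229, minus strand.
CCNG2: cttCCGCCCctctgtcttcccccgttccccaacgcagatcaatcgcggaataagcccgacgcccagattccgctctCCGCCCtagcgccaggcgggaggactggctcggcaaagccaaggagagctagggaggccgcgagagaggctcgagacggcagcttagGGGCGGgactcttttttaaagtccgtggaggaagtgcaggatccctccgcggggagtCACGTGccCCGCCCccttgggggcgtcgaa
CDKN1A: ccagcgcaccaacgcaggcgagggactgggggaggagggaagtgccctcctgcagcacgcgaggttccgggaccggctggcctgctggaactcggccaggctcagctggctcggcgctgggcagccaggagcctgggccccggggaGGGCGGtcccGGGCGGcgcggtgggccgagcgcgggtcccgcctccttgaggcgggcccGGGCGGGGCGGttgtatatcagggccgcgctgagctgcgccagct
CDKN1B: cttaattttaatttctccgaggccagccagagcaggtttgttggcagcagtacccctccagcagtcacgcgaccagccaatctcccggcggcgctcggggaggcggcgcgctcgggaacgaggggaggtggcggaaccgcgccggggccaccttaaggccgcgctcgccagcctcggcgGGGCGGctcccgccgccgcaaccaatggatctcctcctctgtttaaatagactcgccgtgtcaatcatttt
CDKN2B: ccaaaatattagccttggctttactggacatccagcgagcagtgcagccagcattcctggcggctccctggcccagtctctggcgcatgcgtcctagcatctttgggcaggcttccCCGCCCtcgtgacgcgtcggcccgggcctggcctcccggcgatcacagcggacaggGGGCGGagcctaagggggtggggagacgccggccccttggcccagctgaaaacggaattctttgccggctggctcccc
CDKN2D: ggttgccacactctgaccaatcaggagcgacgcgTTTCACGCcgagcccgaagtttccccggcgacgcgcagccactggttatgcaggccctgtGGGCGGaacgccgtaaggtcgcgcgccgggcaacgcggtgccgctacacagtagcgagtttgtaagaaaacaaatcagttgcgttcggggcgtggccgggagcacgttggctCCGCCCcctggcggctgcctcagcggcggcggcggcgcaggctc

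The SP1 box was in all 5 sequences, 4 times in CCNG2 and in CDKN1A and 1 time in CDKN1B, and 45.0% of the 35116 promoter windows in the table hold it. In CDKN1A the last pair of boxes shares 1 base. The E-box, which MYC and related factors bind, lay 30 to 25 bases before the start of CCNG2, and 7.26% of windows hold it. The E2F motif lay 216 to 209 bases before the start of CDKN2D, and 6.89% of windows hold it. Among the 11 windows of 7 members, which include 3 each for CCND3 and CDKN2C, the FOXO motif GTAAACA (3.42% of windows) was in 1 window of CCND3, and neither the AP-1 motif TGANTCA (7.71%) nor the CRE motif TGACGTCA (1.85%) was found. The search covered both strands and windows of 250 bases before and 50 bases after the start. A match describes the letters only and is not evidence of a site. CCND1, CCND2 and CDKN1C were not looked at.

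Gefitinib moved all 9 measured genes in PC9 cells, where the inhibitor CDKN1C rose 5.55-fold and the cyclin CCND1, by its most variable probe, fell 3.48-fold. CCNG2, CDKN1B, CDKN1C, CDKN2B and CDKN2C rose, whereas CCND1, CDKN1A, CDKN2D and, by its most variable probe only, CCND3 fell. The same 5 genes were higher in PC9M2 cells and CCND1, CDKN1A and CDKN2D were lower, 8 of 9 in all, whereas CCND3 did not pass the test. Calls were common in these comparisons. In PC9 cells 72.3% of all genes tested were called, 35.1% higher and 37.2% lower, and in PC9M2 cells 66.7%, 32.6% higher and 34.2% lower. The number called is therefore not a result about these genes. The median size of their difference was 1.25 in PC9 cells and 0.77 in PC9M2 cells, beside 0.44 and 0.32 over all genes tested. The ranges of the gefitinib and untreated courses overlapped for every member in both lines. Some differences were already there in the 0 h samples, each a single pair of arrays. At 0 h the difference was -1.51 for CCND1, -1.56 for CDKN1A, 0.92 for CDKN2B and 0.88 for CCNG2 in PC9 cells, and -1.11, -1.32, 0.33 and 1.02 in PC9M2 cells. By contrast it was -0.09 for CDKN2D and 0.43 for CDKN1C in PC9 cells, and -0.47 and 0.15 in PC9M2 cells. With a normexp background correction and an offset of 50, the difference in PC9 cells was smaller for CCND1 (-1.02), CDKN1A (-0.59), CDKN1B (0.56), CDKN1C (1.29) and CDKN2B (0.35). The PC9M2 values became -0.47 for CCND1, -0.22 for CDKN1A, 0.10 for CDKN1B and 0.09 for CDKN2B, and each of these kept its call.

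**Figure D1:**
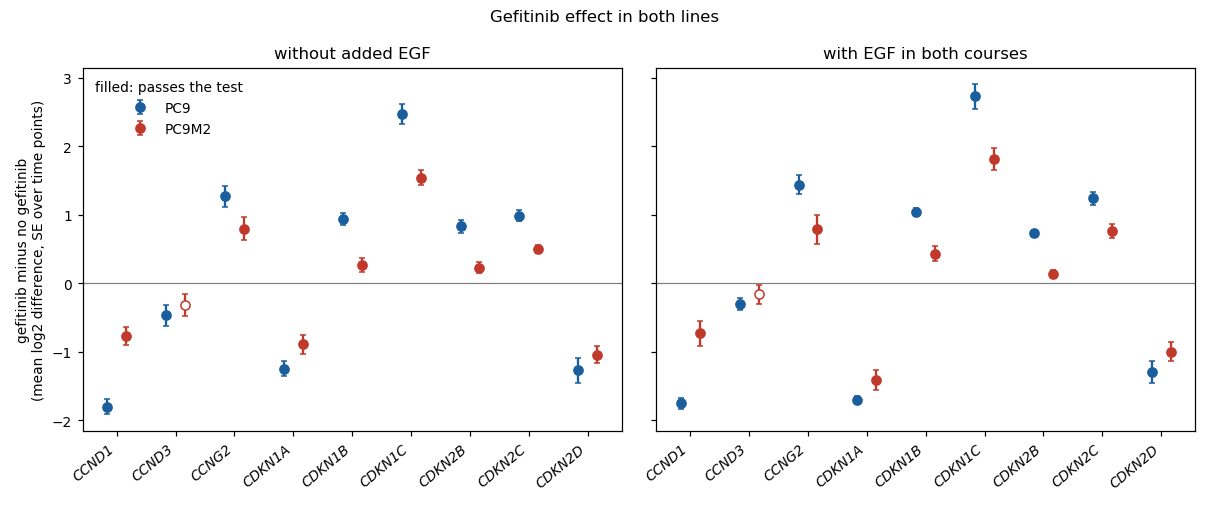
Mean log2 difference between gefitinib and no gefitinib for the 9 measured genes in PC9 and PC9M2 cells, without EGF (left) and with EGF in both courses (right). Points are means over 26 time points (25 for CDKN2B in PC9 and CDKN1C in PC9M2 cells without EGF), bars are SE, and open points did not pass the test. CDKN1C had the highest point in each panel in both lines, and CCND1 was lower in PC9 cells (-1.80) than in PC9M2 cells (-0.77).

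CCND1 encodes cyclin D1, a D-type cyclin that mitogens induce. In untreated PC9 cells its level ran from 8.88 through a median of 9.49 to 10.38, and with gefitinib from 6.94 through 7.68 to 8.91. The courses overlapped only at their edges, and gefitinib was lower at 26 of 26 time points by a mean of -1.80 ± 0.11 (SE, adjusted p = 2.76e-14). In untreated PC9M2 cells the level ran from 8.49 through 9.37 to 10.41, and with gefitinib from 6.65 through 8.86 to 9.40. The gefitinib course of PC9M2 cells therefore reached into the untreated range, although it too was lower at 26 of 26 time points, by -0.77 ± 0.13 (adjusted p = 8.90e-06). The loss in PC9M2 cells was early. It was -1.43 ± 0.68 (SD, n = 9) from 0 to 7 h, -0.60 ± 0.40 (n = 8) from 8 to 15 h and -0.25 ± 0.29 (n = 9) from 16 to 24 h. In PC9 cells the means in these windows were -2.00 ± 0.60, -1.92 ± 0.53 and -1.49 ± 0.42. The change of the gefitinib effect over time was called for CCND1 in PC9M2 cells (adjusted p = 0.000571) and was not called in PC9 cells. With the variance inflated for the correlation of neighbouring time points, the CCND1 call in PC9M2 cells was lost. The other 2 CCND1 probes fell by less than this one in both lines. Their untreated and gefitinib means in PC9 cells were 11.68 and 10.30 for 1 probe and 10.91 and 9.47 for the other. In PC9M2 cells they were 12.20 and 11.68, and 11.34 and 10.78.

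**Figure D2:**
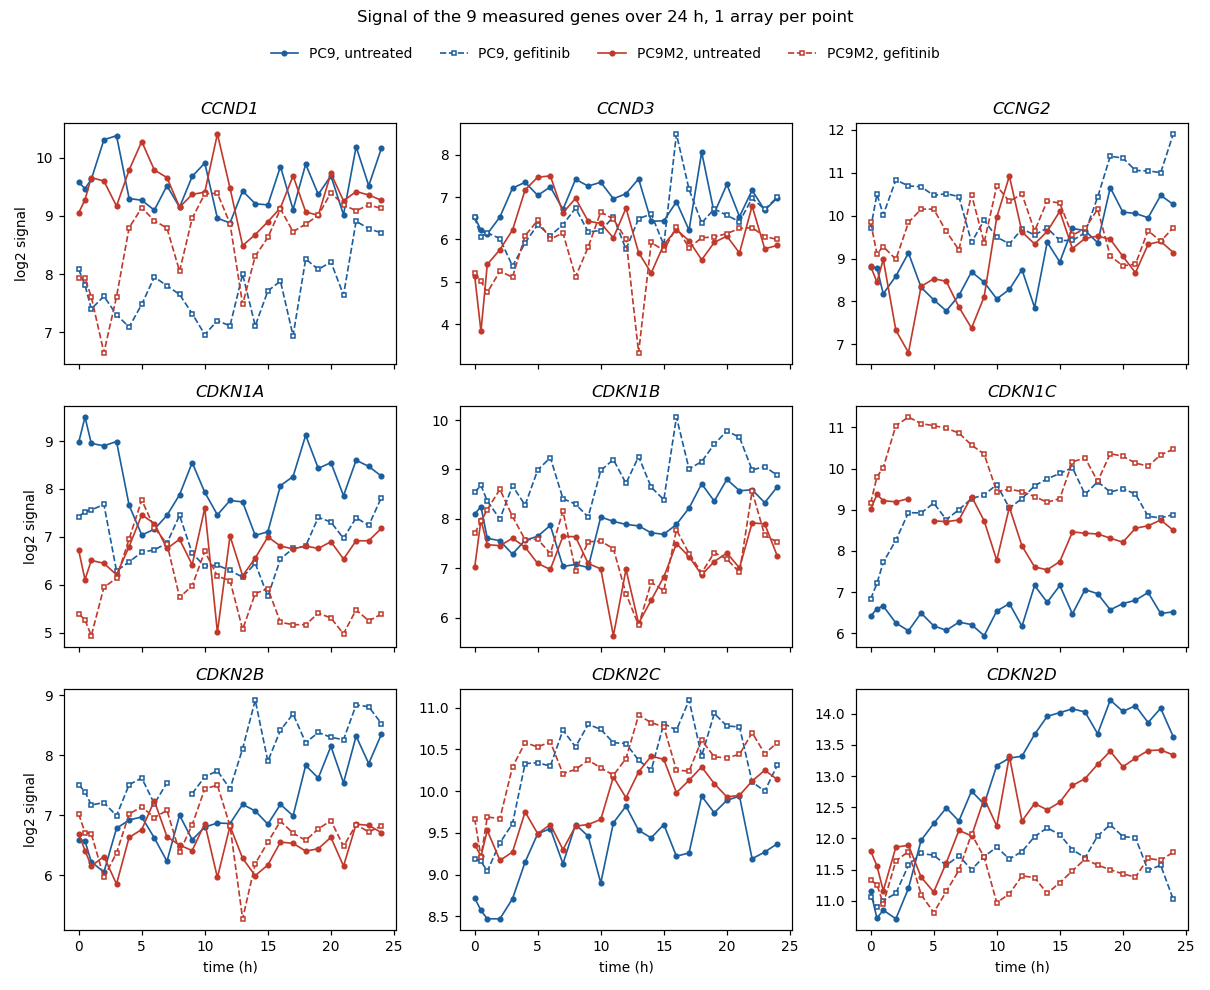
Log2 signal of the 9 measured genes (y axis) against time in h (x axis) for untreated (filled, solid) and gefitinib (open, dashed) courses of PC9 (blue) and PC9M2 (red) cells, 1 array per point. Untreated CDKN2D climbed in both lines while the gefitinib courses stayed between 10.81 and 12.22, and gefitinib-treated CCND1 of PC9M2 cells joined the untreated courses late in the day. Gaps are arrays on which the spot was an outlier.

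The other D-type cyclins gave less. CCND3 encodes cyclin D3, and in PC9 cells its median was 6.97 without and 6.41 with gefitinib. Gefitinib was lower at 19 of 26 time points, by -0.47 ± 0.15 (adjusted p = 0.00566), and the window means were -0.68 ± 0.66, -0.75 ± 0.48 and 0.00 ± 0.92 (SD). In PC9M2 cells the difference was -0.32 ± 0.16 (adjusted p = 0.0731), and without 0.5 h it was called at -0.38. The second CCND3 probe did not show the fall: it gave -0.01 in PC9 cells and 0.50 in PC9M2 cells, where it was called higher. CCND3 also lost its call in PC9 cells when arrays were scaled to their 75th percentile (-0.29). CCND2, the gene of cyclin D2, was not tested. Its 3 probes were well above background on 0 to 6 of 26 arrays of a course, and their course medians lay between 1.83 and 2.44, near the floor of the scale.

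CCNG2 rose in both lines, where CCND1 fell. In PC9 cells its level ran from 7.78 through 8.80 to 10.65 untreated and from 9.34 through 10.43 to 11.90 with gefitinib, a mean difference of 1.27 ± 0.15 (adjusted p = 1.00e-08), higher at 24 of 26 time points. The untreated course of PC9M2 cells ran from 6.81 through 9.09 to 10.92 and the gefitinib course from 8.83 through 9.67 to 10.69, a difference of 0.80 ± 0.17 (adjusted p = 0.000141). The courses overlapped widely in both lines. The gap was widest early in both lines, at 2.00, 1.01 and 0.77 in the 3 windows in PC9 cells and 1.40, 0.83 and 0.18 in PC9M2 cells, and its change over time was called in each. In PC9 cells the gap narrowed while the untreated level rose, from a mean of 8.42 in the first window to 10.02 in the last. The second CCNG2 probe gave 1.27 and 0.78. The call in PC9M2 cells was lost with the variance inflated for neighbouring time points.

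Among the CIP/KIP inhibitors, CDKN1C rose, CDKN1B rose less, and CDKN1A fell. CDKN1C encodes p57, and in untreated PC9 cells its level ran from 5.94 through 6.53 to 7.16. With gefitinib it ran from 6.83 through 9.22 to 10.02, and only the array at 0 h lay within the untreated range. The difference was 2.47 ± 0.15 (adjusted p = 2.10e-14), higher at 26 of 26 time points. It was 0.43 at 0 h, 1.06 at 1 h, 2.01 at 2 h and 2.86 at 3 h, and it stayed between 1.85 and 3.55 after that. Untreated PC9M2 cells were already higher, from 7.54 through 8.61 to 9.37, and with gefitinib it ran from 9.16 through 10.21 to 11.25. Here the difference was 1.54 ± 0.11 (adjusted p = 2.96e-12), higher at 25 of 25 time points, with the spot of 1 array left out as an outlier. The PC9M2 rise also came in the first hours, from 0.15 at 0 h to 1.98 at 3 h. The change of the effect over time was called in both lines (adjusted p = 1.05e-06 and 0.000527).

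CDKN1B encodes p27, the inhibitor that accumulates in quiescent cells. In PC9 cells its level ran from 7.02 through 7.89 to 8.80 untreated and from 8.00 through 8.93 to 10.06 with gefitinib. Gefitinib was higher at 26 of 26 time points, by 0.94 ± 0.09 (adjusted p = 1.58e-10). The courses of PC9M2 cells lay on top of each other, from 5.64 through 7.19 to 7.98 untreated and from 5.85 through 7.53 to 8.60 with gefitinib. The difference of 0.27 ± 0.10 was called (adjusted p = 0.0151), with 18 of 26 time points higher, but it was not called over the last 13 time points (0.05) or with time points 3 h apart (0.15). The second CDKN1B probe, spotted 10 times on each array, gave larger values of 1.25 in PC9 cells and 0.79 in PC9M2 cells.

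CDKN1A encodes p21, a target of p53 that growth factors also induce, and it was the CIP/KIP member that gefitinib lowered. In PC9 cells its level ran from 7.03 through 8.16 to 9.50 untreated and from 5.76 through 6.78 to 7.82 with gefitinib. Gefitinib was lower at 26 of 26 time points, by -1.25 ± 0.11 (adjusted p = 1.06e-10). In PC9M2 cells it ran from 5.01 through 6.78 to 7.60 untreated and from 4.94 through 5.61 to 7.77 with gefitinib, a difference of -0.89 ± 0.14 (adjusted p = 3.51e-06) with 22 of 26 time points lower. The time course of the fall in each line is given by its windows. The window means were -1.27, -1.23 and -1.26 in PC9 cells, and -0.42 ± 0.68, -0.66 ± 0.78 and -1.58 ± 0.13 in PC9M2 cells, where the change over time was called (adjusted p = 0.000801). The untreated PC9M2 array at 11 h that stood apart carried the lowest untreated value, and without that time point the difference was -0.98. The normexp correction gave -0.22 in PC9M2 cells, still called.

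**Figure D3:**
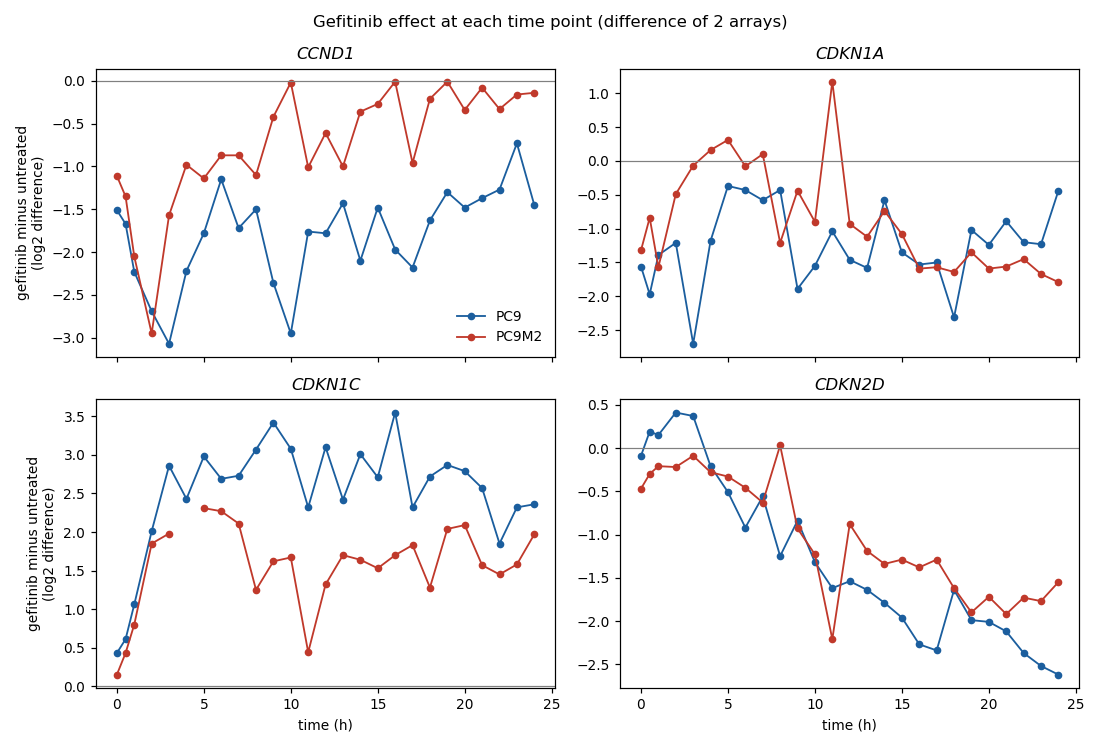
Gefitinib minus untreated log2 signal (y axis) at each time point in h (x axis) for CCND1, CDKN1A, CDKN1C and CDKN2D in PC9 (blue) and PC9M2 (red) cells, where each point is the difference of 2 arrays and the grey line marks 0. The CCND1 difference of PC9M2 cells came back toward 0 after an early low, CDKN1C rose over the first 3 h in both lines, and CDKN2D moved down through the course to -2.62 in PC9 and -1.55 in PC9M2 cells at 24 h. The CDKN1A point above 1 at 11 h rests on the untreated PC9M2 array that stood apart.

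Of the INK4 inhibitors, CDKN2C and CDKN2B rose with gefitinib and CDKN2D fell. CDKN2C encodes p18, and in PC9 cells its median was 9.41 untreated and 10.39 with gefitinib, a difference of 0.99 ± 0.08 (adjusted p = 5.63e-12) that was positive at 26 of 26 time points. The medians in PC9M2 cells were 9.93 and 10.40, and the difference was 0.50 ± 0.06 (adjusted p = 4.58e-08) with 25 of 26 time points higher. The gefitinib levels of the lines were thus close, and the untreated levels were not. CDKN2B encodes p15, a gene known for its response to transforming growth factor beta. Its median was 6.94 untreated and 7.74 with gefitinib in PC9 cells, a difference of 0.83 ± 0.09 (adjusted p = 2.01e-09, higher at 25 of 25 time points, with 1 outlier spot left out). In PC9M2 cells the difference was 0.23 ± 0.08 (adjusted p = 0.0196), with 19 of 26 time points higher, and it was not called over the last 13 time points (0.09).

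CDKN2D encodes p19, an INK4 protein whose transcript is known to peak in S phase, and it had the widest fitted range over time of the 9 members in the untreated and the EGF courses of PC9 cells (3.40 and 3.74). In untreated PC9 cells it ran from 10.71 at 2 h through a median of 13.31 to 14.22 at 19 h, and the window means were 11.51, 13.34 and 13.97. With gefitinib it ran from 10.90 through 11.71 to 12.22, and the window means were 11.38, 11.85 and 11.76. The courses started together and parted after about 4 h. The gefitinib effect was -0.13 ± 0.46 from 0 to 7 h, -1.49 ± 0.35 from 8 to 15 h and -2.21 ± 0.30 from 16 to 24 h, and its change over time was called (adjusted p = 1.37e-11). In PC9M2 cells the untreated window means were 11.61, 12.51 and 13.22, those with gefitinib 11.28, 11.38 and 11.57, and the effects -0.33, -1.13 and -1.65 (change over time adjusted p = 2.05e-06). Over all time points the difference was -1.27 ± 0.18 in PC9 cells (adjusted p = 4.40e-07) and -1.04 ± 0.13 in PC9M2 cells (adjusted p = 3.90e-08). Both of these calls were lost with the variance inflated for the correlation of neighbouring time points.

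Gefitinib was also compared in the presence of EGF. All 9 members were called in PC9 cells and 8 of 9 in PC9M2 cells, where 78.9% and 74.5% of all genes were called, and each called member had the direction seen without EGF. CCND1 differed by -1.75 ± 0.08 in PC9 and -0.73 ± 0.18 in PC9M2 cells, CDKN1C by 2.73 ± 0.18 and 1.81 ± 0.16, and CDKN1A by -1.71 ± 0.06 and -1.41 ± 0.15. These courses are other arrays than those without EGF, but PC9M2 cells include the pair at 0.5 h that went against their labels. Without it the PC9M2 values were -0.83 for CCND1, 1.90 for CDKN1C and -1.54 for CDKN1A. CDKN2B in PC9M2 cells, called at 0.14 ± 0.06 (adjusted p = 0.0433), lost its call without 11 h (0.13), and its second probe gave -0.04. The second probe of CCND3 went up, by 0.44 in PC9 and 0.68 in PC9M2 cells, where the main probe gave -0.30 and -0.16.

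Fewer calls were made for EGF on its own than for gefitinib, among the members and over all genes alike. In PC9 cells 3 of 9 were called, beside 25.6% of all genes, and in PC9M2 cells 2 of 9, beside 9.13%. CDKN1A was the member that rose. In PC9 cells its level with EGF ran from 7.68 through 8.87 to 9.61, which was 0.60 ± 0.10 above the untreated course (adjusted p = 4.43e-05, higher at 23 of 26 time points). In PC9M2 cells it ran from 5.36 through 7.22 to 8.40, a difference of 0.53 ± 0.12 (adjusted p = 0.00309, higher at 25 of 26 time points). The ranges of these courses overlapped with those of the untreated ones. Without 0.5 h the PC9M2 difference was 0.58 and without 11 h it was 0.44, both called. CDKN2C fell slightly, by 0.11 in PC9 cells (adjusted p = 0.0387) and by 0.20 in PC9M2 cells (adjusted p = 0.0134), and the PC9 call was lost without 0.5 h. CDKN1C fell by 0.19 in PC9 cells (adjusted p = 0.0175), a call that was lost in 6 of 18 alternatives, among them normexp, which gave -0.04. CCND1 differed by -0.01 (95% interval -0.16 to 0.14) in PC9 and -0.04 (-0.22 to 0.13) in PC9M2 cells.

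With gefitinib present, EGF moved none of the members by limma in either line, beside 0.0452% of all genes in PC9 cells and 3.21% in PC9M2 cells. At an unadjusted p under 0.05 there were 2 members in each line by limma and 1 in each by the methods' t-test, which also called 0 after adjustment. CDKN1A then differed by 0.14 (95% interval 0.02 to 0.26) in PC9 and 0.01 (-0.16 to 0.19) in PC9M2 cells. In PC9M2 cells CDKN1C differed by 0.10, and without 0.5 h it was called at 0.12. These contrasts share no arrays with the contrasts of EGF alone, and the difference between the EGF effects with and without gefitinib was not tested.

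**Figure D4:**
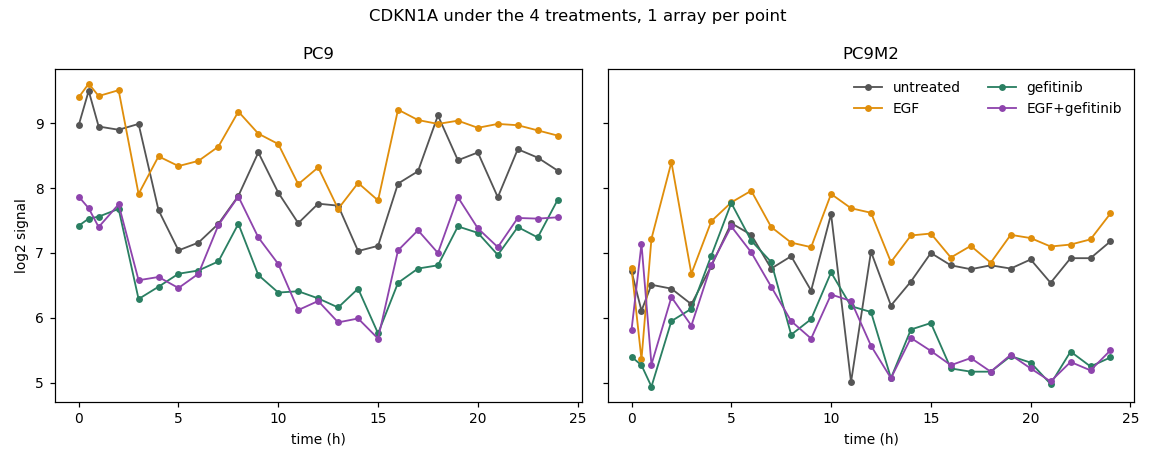
Log2 signal of CDKN1A (y axis) against time in h (x axis) under the 4 treatments in PC9 (left) and PC9M2 (right) cells, 1 array per point. The EGF course lay above the untreated course at 23 of 26 time points in PC9 and 25 of 26 in PC9M2 cells. Gefitinib lay below untreated at 26 of 26 time points in PC9 and 22 of 26 in PC9M2 cells. EGF and gefitinib lay below EGF alone at 26 of 26 and 25 of 26. The crossed points at 0.5 h in PC9M2 cells (5.36 for EGF and 7.14 for EGF and gefitinib) are the arrays that went against their labels.

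Between the lines, CDKN1C had the widest untreated difference of the 9 members. Untreated PC9M2 cells had 2.03 ± 0.15 more than PC9 cells (adjusted p = 1.28e-12, higher at 25 of 25 time points), and the untreated and the EGF courses of the lines did not overlap for this gene. Those were the only line comparisons of a member without overlap, and overlap was not counted over all genes tested, so its rarity is not known. With the normexp correction the untreated CDKN1C difference was 0.94, still called. Of the 9 members, 7 were called untreated (68.1% of all genes), 8 with gefitinib (64.9%), 7 with EGF (69.8%) and 7 with both (67.7%), so calls were again near the background. CDKN1A was lower in PC9M2 cells, by -1.43 ± 0.18 untreated and -1.07 ± 0.20 with gefitinib. With the normexp correction these CDKN1A values were -0.66 and -0.29. With inflated variance CDKN1A, CDKN1C, CCNG2 and CDKN2D lost their line calls with gefitinib. CDKN2B was lower by -0.59 ± 0.12 and -1.18 ± 0.15 (-0.20 and -0.46 with normexp), and at 25 of 25 time points with gefitinib. The untreated CDKN2B difference lay in the later hours, with window means of 6.55 in PC9 and 6.52 in PC9M2 cells from 0 to 7 h and 7.76 and 6.57 from 16 to 24 h. It was -0.14 and not called over the first 13 time points, and its call was also lost with inflated variance or with time points 3 h apart. CDKN2C was higher untreated (0.52 ± 0.08) and did not pass the test with gefitinib (0.03, 95% interval -0.16 to 0.21).

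CCND1 went the other way. The main probe gave -0.14 ± 0.13 untreated (adjusted p = 0.330), and with gefitinib PC9M2 cells had 0.89 ± 0.16 more than PC9 cells (adjusted p = 1.36e-05, higher at 23 of 26 time points). The other 2 CCND1 probes gave 0.52 and 0.44 untreated and 1.38 and 1.31 with gefitinib, all called. CDKN1B has no settled direction between the lines. Its main probe was lower in PC9M2 cells, by -0.77 untreated and -1.44 with gefitinib, and the probe with 10 spots was higher, by 0.92 and 0.45, with both called. The line differences of CCND3 (-0.83 untreated and -0.68 with gefitinib), CCNG2 with gefitinib (-0.56) and CDKN2D (-0.48 and -0.25) were called too. The second CCND3 probe had untreated means of 9.83 in PC9 and 9.31 in PC9M2 cells. With gefitinib its means were 9.82 and 9.81, so it showed no line difference there. The CCND3 call with gefitinib was lost in 5 of 21 alternatives. With scan day as a random block, CCND3, CCNG2 and CDKN2D lost their calls with gefitinib and CDKN2D its call untreated. Inflated variance likewise removed the calls of CCNG2 and CDKN2D with gefitinib and of CDKN2D untreated.

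**Figure D5:**
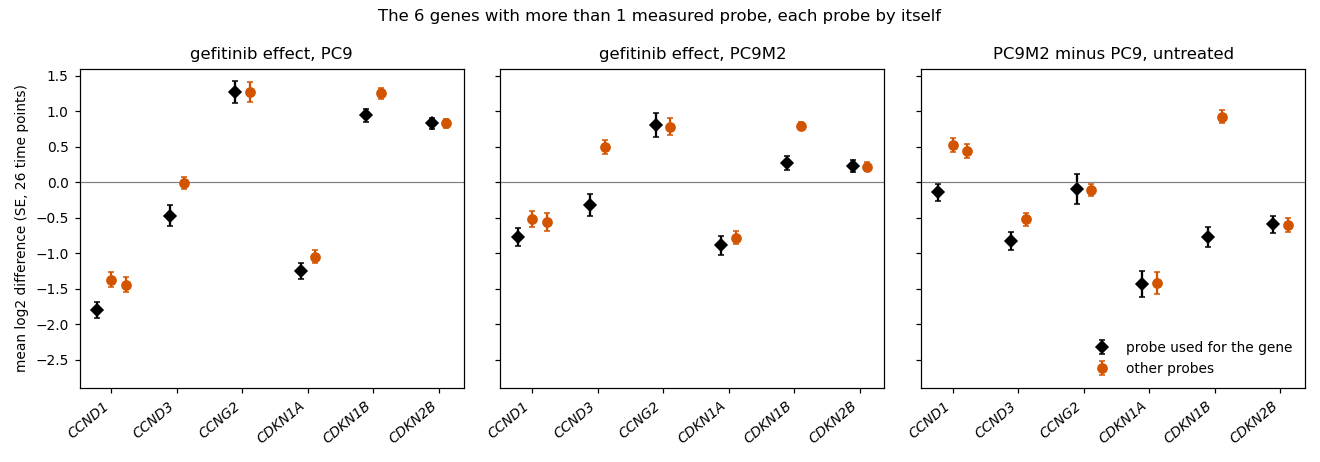
Mean log2 difference (y axis, SE over time points) by each probe of the 6 genes with more than 1 measured probe, for the gefitinib effect in PC9 cells (left), the gefitinib effect in PC9M2 cells (middle) and the untreated lines (right). Black diamonds are the probe used for the gene and orange circles the others. The CCNG2, CDKN1A and CDKN2B probes lay close together in all panels, the CDKN1B probes had opposite signs between the lines (-0.77 and 0.92), and the CCND3 probes had opposite signs in PC9M2 cells (-0.32 and 0.50).

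The size of the gefitinib effect was compared between the lines in a test of the difference itself. It was called for 6 of 9 members without EGF, beside 34.0% of all genes, and for 7 of 9 with EGF, beside 48.7%. The median size of the difference of effects was 0.49 and 0.59 for the members and 0.21 in both cases over all genes. CCND1 fell less in PC9M2 cells, by 1.03 ± 0.13 without EGF (adjusted p = 6.00e-07, 25 of 26 time points) and 1.02 ± 0.15 with EGF, and its other probes gave 0.85 and 0.87 without EGF. The inhibitors that rose did so less in PC9M2 cells. The differences were -0.67 ± 0.13 for CDKN1B, -0.93 ± 0.12 for CDKN1C, -0.59 ± 0.12 for CDKN2B and -0.49 ± 0.09 for CDKN2C. The CDKN1B value was -0.46 by its second probe, so that both probes gave a smaller rise in PC9M2 cells while their line differences had opposite signs. CCNG2 rose less by -0.47 ± 0.18 (adjusted p = 0.0407), a call that was lost without 0.5 h (-0.45) or without 11 h (-0.42). For CDKN1A (0.36, 95% interval 0.02 to 0.71) and CCND3 (0.15, -0.19 to 0.49) the difference of effects was not called, and for CDKN2D it was called only with EGF (0.31 ± 0.08). The CDKN1C difference depended on the background correction, and with normexp it was -0.12 and no longer called.

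The members changed over the 24 h as well. CDKN1C and CDKN2C changed in 8 of 8 courses, CCNG2 and CDKN1B in 7, CDKN1A and CDKN2D in 6, and CCND1, CCND3 and CDKN2B in 4. Untreated, 7 of 9 members were called in PC9 and 6 in PC9M2 cells, beside 66.3% and 67.2% of all genes. The other PC9 courses gave 8 with gefitinib (77.8%), 8 with EGF (78.8%) and 9 with both (83.1%), and the other PC9M2 courses 6 (63.7%), 6 (74.9%) and 4 (67.7%). In untreated PC9 cells the fitted range was widest for CDKN2D (3.40), and in untreated PC9M2 cells it was widest for CCND3 (2.78), followed by CCNG2 (2.19) and CDKN2D (1.96). CDKN2D went from a low in the first 2 h of both courses to a high at 18 h in PC9 and 24 h in PC9M2 cells. CDKN2B was called in the 4 PC9 courses and in no PC9M2 course, a contrast that was not itself tested, and in untreated PC9 cells its window means went from 6.55 to 7.76. The gefitinib effect itself changed with time for 4 members in PC9 cells (CCNG2, CDKN1B, CDKN1C and CDKN2D), beside 52.3% of all genes, and for 6 in PC9M2 cells (CCND1, CCNG2, CDKN1A, CDKN1C, CDKN2C and CDKN2D), beside 45.5%.

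The rest of the G1 machinery fell with gefitinib more often than it rose. The list held cyclins, kinases, E2F factors, TFDP1, TFDP2, pocket proteins, CDC25A, SKP2, CKS1B, CDKN3 and the inhibitor CDKN2A. Of its 22 genes, none of them a member, 21 were tested. In PC9 cells 5 rose, 15 fell and 1 did not pass the test (median -0.68, beside -0.02 over all genes), and in PC9M2 cells 3 rose, 14 fell and 4 did not pass (median -0.58, beside -0.01). Among those called in both lines, CCNE1 had the widest PC9 difference, with -2.53 ± 0.16 in PC9 and -1.83 ± 0.08 in PC9M2 cells. CCNE1 is the gene of cyclin E1, which acts after the D-type cyclins. CDC25A, the phosphatase that activates CDK2, gave -2.41 ± 0.25 and -1.46 ± 0.15, and the E2F factor E2F5 -1.56 ± 0.23 and -1.14 ± 0.08. The partners of the D-type cyclins parted, with CDK4 at -0.82 ± 0.12 and -0.59 ± 0.06 and CDK6 at 0.86 ± 0.14 and 0.84 ± 0.16. The pocket protein RBL2, which is known for quiescent cells, rose by 1.26 ± 0.18 and 0.86 ± 0.07, whereas RB1 gave -0.58 ± 0.09 and -0.51 ± 0.09.

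Lists of targets of p53 and of FOXO factors were read beside CDKN1A, CDKN1B and CCNG2. Of 15 p53 targets other than CDKN1A, 7 rose, 5 fell and 3 did not pass the test in each line, with medians of 0.03 in PC9 and 0.18 in PC9M2 cells. Among them MDM2, the ligase that holds p53 down, gave -1.08 ± 0.20 and -0.82 ± 0.21, and TP53INP1 gave 2.78 ± 0.12 and 1.59 ± 0.13. Of 10 FOXO targets, 7 rose, 2 fell and 1 did not pass in PC9 cells (median 0.51), and 8 rose and 2 fell in PC9M2 cells (median 0.66). BCL6, a repressor that lowers CCND2, rose by 2.34 ± 0.08 and 1.90 ± 0.08, and SOD2 gave -0.85 ± 0.18 and -0.63 ± 0.08. Over all genes the medians were -0.02 and -0.01.

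Some genes followed the members closely over the arrays of all 8 courses, which share slides, lines and treatments, so these Pearson correlations are descriptions. CDKN1C was most like LFNG (r = 0.95), CLUAP1 (0.93) and RHOXF1 (0.92). CCND1 was most like EPHA2 (0.89), SPRY4 (0.88) and MAT2A (0.85), of which SPRY4 encodes a feedback inhibitor of receptor signaling. CDKN1A was most like OGDH (0.89), TNFAIP3 (0.88) and ETS1 (0.87), CDKN2D like TOP3A (0.88), PPP1R3F (0.86) and IL11 (0.85), and CCNG2 like YPEL2 (0.86), MAT2B (0.85) and BTG1 (0.85). For the remaining members the closest genes were CLSTN3 for CDKN2B (0.87), KCNS3 for CDKN2C (0.87), ZBED1 for CDKN1B (0.85) and PRICKLE3 for CCND3 (0.77). Among the members, CDKN1C and CDKN2C had a correlation of 0.68. CDKN1A and CDKN1C ran opposite to each other (-0.78). The CDKN1C level was higher and the CDKN1A level lower both in untreated PC9M2 cells and with gefitinib.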

How the data were processed

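RNA of each culture was labelled with Cy3 and hybridized to 1-color Agilent whole human genome arrays. Per the file headers, the deposited intensity values were extracted with Agilent Feature Extraction 10.5.1.1, which subtracted background and removed spatial trends (gProcessedSignal), without normalization between arrays. The authors also deposited a table of normalized intensity values, which served as an alternative. Their methods give quantile normalization, the probe of largest variance for each gene and paired tests over the 26 time points, and the same steps were used here with limma 3.58.1 (R 4.3.3). Signals of non-control spots were quantile normalized over all arrays, raised to a floor of 1 and log2-transformed. Spots flagged as outliers (0.0793% of tested values) were removed. Of 41000 probes, 24794 were named through their transcript accession and 16206 were not. A gene entered the tests if 13 or more of the 26 arrays in some course had its probe well above background, which left 13263. Differences at matched time points were tested against 0 with limma, two-sided, with Benjamini-Hochberg adjustment at 0.05, and time was tested with a natural spline of 4 degrees of freedom. The tests were run on simulated data with independent time points, which cannot check their error rate where neighbouring points are correlated. Neighbouring time points are not independent, with a median lag-1 autocorrelation over all genes from -0.06 for EGF in PC9 cells to 0.51 between the lines under both agents, and a median over the members from 0.01 to 0.60. Members, lists and the rule for the named genes were chosen with earlier results of these data known. The rule took every member, and the 3 genes of the G1 list with the widest PC9 difference among those called in both lines. CDK4, CDK6, RB1, RBL2, MDM2, TP53INP1, BCL6 and SOD2 were named after their values were seen. Alternatives covered 20 settings and the removal of 2 time points added later.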

Additional observations from a re-analysis of the deposited data

Results flagged for a closer look

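The gefitinib effect differed between PC9M2 and PC9 cells by a test of the difference itself for 6 members without EGF and for 7 with EGF. CCND1 fell less in PC9M2 cells, with differences of 1.03 without and 1.02 with EGF, and it remained called in every alternative tried (0.55 to 1.21 and 0.57 to 1.19). The rise of CDKN1B differed by -0.67 and -0.62, that of CDKN2B by -0.59 and -0.59 and that of CDKN2C by -0.49 and -0.48. Without EGF the call was lost in 1 of 20 alternatives for CDKN1B, 2 of 20 for CDKN2B and 2 of 19 for CDKN2C. With EGF it was lost in 1 of 20, 0 of 20 and 3 of 19. The rise of CCNG2 differed by -0.47 and -0.65, and the first of these was not called in 9 of 20 alternatives. The rise of CDKN1C differed by -0.93 and -0.92, and with the normexp correction by -0.12 and -0.02, neither of them called. The fall of CDKN2D differed by 0.31 with EGF, a call that was lost in 4 of 19 alternatives.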

How the results depend on the processing

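Of 3086 values compared, 2845 kept their side of the threshold, 175 lost their call, 34 gained a call and 32 reversed direction. A reversal was counted only where a call was made in either setting. Values called in neither setting counted as kept whatever their sign, and tests of change over time have no direction. Another probe reversed the most. With the probe of the highest mean, CCND3 with gefitinib and EGF gave 0.44 in PC9 and 0.68 in PC9M2 cells and with gefitinib alone 0.50 in PC9M2 cells, and CDKN2B in PC9M2 cells gave -0.04 for gefitinib with EGF and -0.15 for EGF with gefitinib. PC9M2 minus PC9 turned to 0.52 untreated and 0.57 with EGF for CCND1, and to 0.92 untreated, 0.45 with gefitinib, 0.95 with EGF and 0.34 with both for CDKN1B. Each of these probes taken by its own gave the same values, and the third CCND1 probe gave 0.44 and 0.47. With the probes of a gene averaged, CCND3 with gefitinib and EGF was 0.07 in PC9 and 0.26 in PC9M2 cells, CCND1 between the lines 0.27 untreated and 0.29 with EGF, and CDKN1B 0.07 and 0.11. The last 13 time points turned CCND3 with gefitinib and EGF in PC9M2 cells to 0.25, and the first 13 turned CDKN2B between the EGF courses to 0.13. Each alternative rests on other probes or on fewer time points by its construction, and the cause was not tested.

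Counts of called members moved as follows. For EGF in PC9 cells, 3 became 1 with normexp, unpaired courses, inflated variance or the last 13 time points, 0 with time points 3 h apart and 5 with the probe of the highest mean. For EGF in PC9M2 cells, 2 became 1 with inflated variance or the last 13 time points and 0 with unpaired courses, time points 3 h apart or the first 13. For EGF with gefitinib in PC9M2 cells, 0 became 1 with the probe of the highest mean and without 0.5 h. With inflated variance, gefitinib in PC9M2 cells went from 8 to 5, with and without EGF, and the line comparison from 8 to 4 with gefitinib and from 7 to 4 with both agents. The line comparisons fell to 4 untreated, 5 with gefitinib and 4 with EGF over the first 13 time points, to 5 with gefitinib and 4 with EGF with time points 3 h apart, and to 2 under each of the 4 treatments with a one-sided test for higher values in PC9M2 cells, which cannot call lower ones. With scan day as a random block, the line comparison with gefitinib gave 5, and changes over time gave 5 (of 9) for EGF and gefitinib in PC9 cells, 3 (of 6) for gefitinib and 2 (of 4) for both in PC9M2 cells, and 7 (of 4) for the gefitinib effect over time in PC9 cells. The differences of gefitinib effects gave 3 called without EGF with time points 3 h apart or the first 13, and with EGF 4 with unpaired courses and 3 with the first 13. Scalings moved the median of all genes by less than 0.1. The normexp correction was run on median signals, since the files used here give no mean signal. Dim signals limit CCND2, which gave no test.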
